A study of Rattus norvegicus with 38 samples.

Results

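The leukocyte miRNAs described here are rno-miR-142-3p, rno-miR-142-5p, rno-miR-146a, rno-miR-150, rno-miR-223 and rno-miR-342-3p (written below without the rat prefix), short regulatory RNAs known for their high levels in white blood cells. They were chosen by name and are 6 of the 350 rat miRNAs on the array, each read by 2 probes. Liver RNA came from 38 male Fischer F344 rats, an inbred strain, with 1 array per animal. The animals were 8 weeks old on arrival and were sampled after 90 days on powdered control diet (n = 5) or on diet with a chemical. The diets held Diethylthiourea (2500 ppm, n = 4), Benzophenone (1250 ppm, n = 5), Phenobarbital (1000 ppm, n = 3), Diethylhexylphthalate (12000 ppm, n = 4), Monuron (1500 ppm, n = 4), Chlorendic Acid (1250 ppm, n = 4), Methapyrilene HCl (250 ppm, n = 4) or 2-acetylaminofluorene (40 ppm, n = 5). The study asked how chemicals that do or do not cause cancer alter liver miRNAs. Each piece of liver held hepatocytes together with blood cells, resident macrophages and lymphocytes, so fewer cells of a type and less of the RNA per cell cannot be told apart.

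A miRNA pairs through its seed, the bases near its 5′ end, with messenger RNAs and lowers their translation or stability. miR-142 is made throughout the blood cell lineages, and its hairpin gives a mature miRNA from each arm. miR-150 is abundant in mature lymphocytes and, in the mouse, restrains Myb, while miR-342-3p is made from an intron of Evl and is found in lymphoid and myeloid cells. miR-223 is the miRNA of granulocytes and macrophages. miR-146a is induced by NF-kB in human and mouse cells, where it lowers the signalling proteins Traf6 and Irak1, and it is not limited to leukocytes. In liver these miRNAs are read as signs of Kupffer cells and of infiltrating or circulating white cells.

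The mature sequences below, taken from RefSeq on the GRCr8 rat assembly, are shown because the probes read these molecules and because the seed, bases 2 to 8 in capitals, decides which targets each one can bind. RefSeq's table held 5 of the 6 members.
miR-142-3p: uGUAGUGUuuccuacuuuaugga
miR-142-5p: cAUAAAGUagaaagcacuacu
miR-146a: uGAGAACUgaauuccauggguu
miR-223: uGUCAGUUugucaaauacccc
miR-342-3p: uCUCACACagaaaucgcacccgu
miR-146b: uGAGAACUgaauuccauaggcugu
The 5 members with a sequence had 5 different seeds. miR-146b is no member but is shown because it was the only other miRNA in the table with the miR-146a seed, and on these arrays it was at the floor, the lowest value used, on every one of the 38 arrays.

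The genes lie on 4 chromosomes, at GRCr8 chr10:73055104-73055190 for Mir142, chr10:28349996-28350090 for Mir146a, chr1:104741487-104741571 for Mir150, chrX:65151383-65151492 for Mir223 and chr6:133329655-133329753 for Mir342. Mir342 overlaps the protein-coding gene Evl and Mir142 overlaps Tspoap1. Mir146a and Mir223 overlap annotated long non-coding RNAs, and Mir150 overlaps no other annotated gene. The hairpin of Mir142, 87 bases long, is printed because both of its arms are members and the arrays read them very differently. Its arms are in capitals, first miR-142-5p and then miR-142-3p.
Mir142 hairpin: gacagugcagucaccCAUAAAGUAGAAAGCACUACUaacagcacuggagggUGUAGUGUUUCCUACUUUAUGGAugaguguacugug

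Levels are given as log2 of a probe's signal relative to the 75th percentile on its array, values below -5.50 being raised to that floor, and each miRNA is represented by the brighter of its probes. A level of one miRNA cannot be set against that of another, because probes differ in brightness. miR-146a, miR-150 and miR-223 were detected, with over 50% of spots well above background, on all 38 arrays. miR-142-3p was detected on 37 of 38 and miR-342-3p, close to the floor, on 30 of 38. miR-142-5p sat at the floor on all 38 arrays and was detected on 1, with background-subtracted signals, before scaling, of 2.07 to 18.9 units. Its other probe was detected on 4 arrays, 2 of Methapyrilene HCl and 1 each of Chlorendic Acid and 2-acetylaminofluorene, and exceeded the floor on 1 of them, at -5.31, so no level and no difference is given for it. The 5 others were among the 129 miRNAs tested, those that all arrays of 1 or more groups detected.

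**Figure D1:**
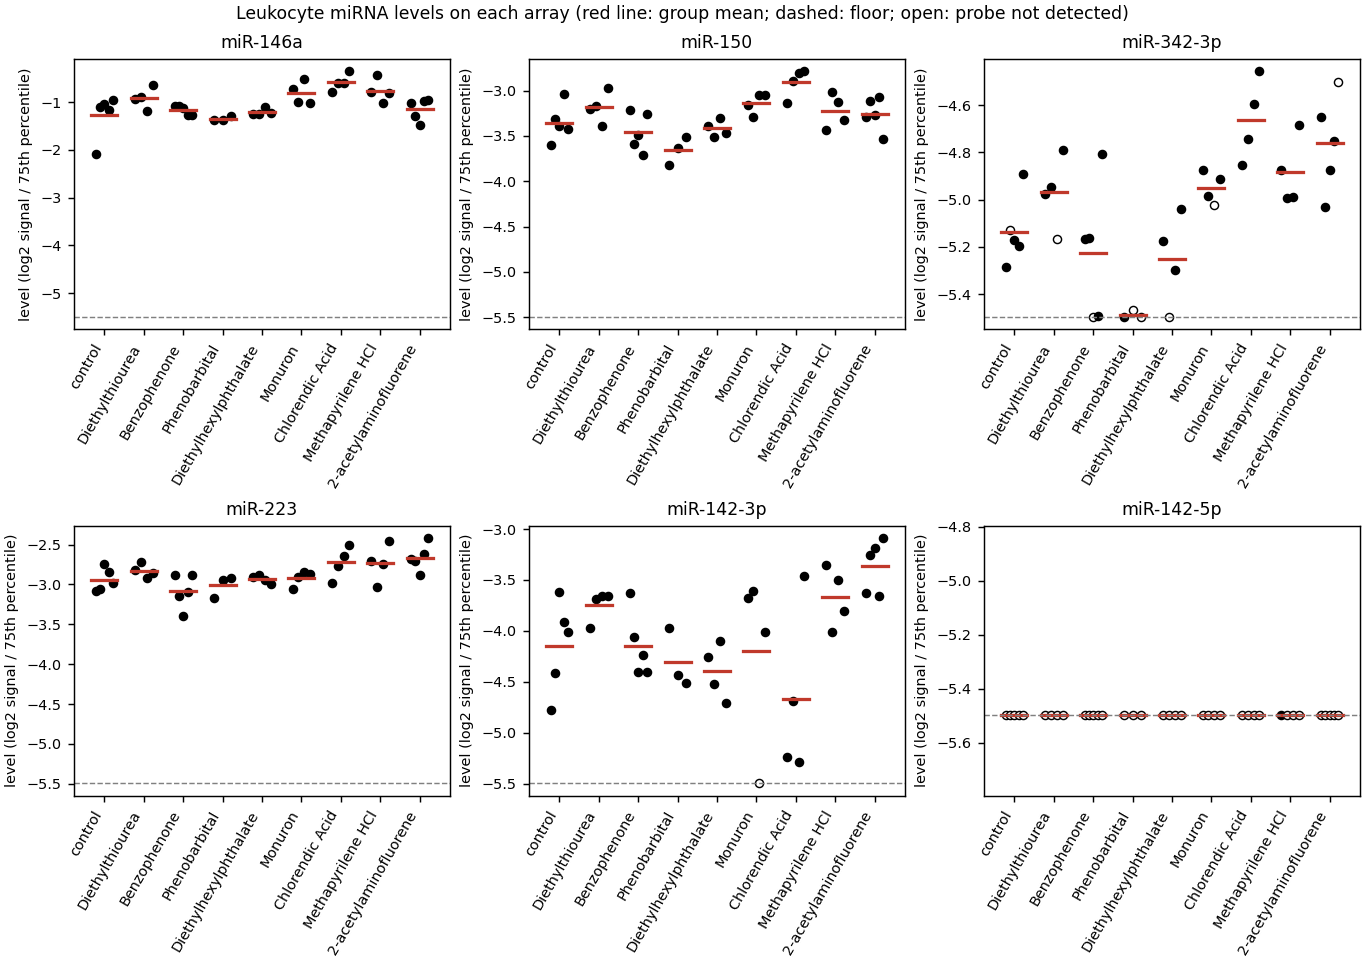
Level of each leukocyte miRNA (y axis, log2 of signal over the array's 75th percentile; each panel has its own scale) on each of the 38 arrays, by diet. Each point is 1 animal, open where the brighter probe was not detected, red lines are group means and the dashed line is the floor at -5.50. The Chlorendic Acid points of miR-146a lie from -0.79 to -0.36, above all 5 control animals, control replicate 1 lies lowest for miR-146a at -2.08, and miR-142-5p lies on the floor throughout.

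The labelled tissue was borne out by miR-122, the abundant hepatocyte miRNA, whose control level was 6.40. From 90 to 141 miRNAs were detected per array, with 100 in control replicate 1 and 90 in Monuron replicate 3. Control replicate 1, alone among control arrays on its slide, gave the lowest control value of 74 of the 129 miRNAs tested. Results that rest on it are therefore also given without it.

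With Chlorendic Acid, a chlorinated flame retardant, 3 of the 5 leukocyte miRNAs tested rose: miR-146a, miR-342-3p and miR-150. Their levels were 1.36 to 1.60 times those of control animals. miR-223 did not pass the test, and miR-142-3p had a lower mean, also without passing. In this comparison 29.5% of all tested miRNAs were called and 20.2% were called higher (limma, Benjamini-Hochberg adjusted p under 0.05), so the diet moved many miRNAs besides these. All 8 comparisons share the same 5 control animals.

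miR-146a, the NF-kB-induced member, had levels of -2.08, -1.10, -1.05, -1.16 and -0.96 in the control animals and of -0.79, -0.61, -0.61 and -0.36 with Chlorendic Acid. Every treated animal was above every control animal. The groups lay apart, in either direction, for 23.3% of tested miRNAs. The difference was 0.68 ± 0.16 (log2, SE), a 1.60-fold level with a limma adjusted p of 0.00173, and it was 0.48 (adjusted p = 0.00616) without control replicate 1, a fit that called 34.1% of tested miRNAs. Leaving out that animal could not make the groups overlap, so their separation without it is no further support.

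miR-342-3p, the Evl intron member, read -5.29, -5.13, -5.17, -5.20 and -4.89 in control animals, where 4 of 5 arrays detected it. With Chlorendic Acid it read -4.85, -4.74, -4.59 and -4.46, detected on all 4 arrays and above every control animal. The difference of 0.47 ± 0.12 corresponds to 1.39-fold (limma adjusted p = 0.00391), and it was 0.44 without control replicate 1 (adjusted p = 0.0118). Each of its probes was detected on every array only in the Chlorendic Acid and Methapyrilene HCl groups, where its means exceeded that of control. As miRNAs were tested only when some group detected them throughout, detection there is no separate support for the rise. The adjusted p of the rise does not allow for that filter.

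miR-150, the lymphocyte member, read -3.60, -3.32, -3.39, -3.04 and -3.43 in control animals and -3.14, -2.89, -2.81 and -2.79 with Chlorendic Acid. Here the groups overlapped: control replicate 4 was above the lowest treated animal. The difference was 0.45 ± 0.12, or 1.36-fold (limma adjusted p = 0.00425), and 0.39 without control replicate 1 (adjusted p = 0.0183).

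miR-223, the granulocyte and macrophage member, had levels of -3.08, -3.05, -2.74, -2.84 and -2.98 in control animals and of -2.98, -2.76, -2.64 and -2.50 with Chlorendic Acid. The lowest treated animal lay within the control range and 2 lay above it, and the difference of 0.22 ± 0.11 gave a limma adjusted p of 0.148. miR-142-3p, made in all blood cell lineages, had control levels of -4.78, -4.41, -3.62, -3.91 and -4.01. Its levels with Chlorendic Acid were -5.24, -4.69, -5.28 and -3.46, with 2 animals below and 1 above all control animals. The difference was -0.52 ± 0.31 (adjusted p = 0.208), and with Chlorendic Acid replicate 4 left out it was -0.92 and passed (adjusted p = 0.0170). It also passed with a term for how many miRNAs each array detected, at -0.77 (adjusted p = 0.0413), and without the 3 arrays of fewest detected miRNAs, at -0.68 (adjusted p = 0.0457), both chosen after seeing the data.

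The 3 rises passed the limma test in each of the 38 fits that left out 1 array. Only leaving out a Chlorendic Acid or control array can change these differences, and any other omission changes only the shared estimate of spread. With slide as a block the rises were 0.79 for miR-146a (limma adjusted p = 0.00125), 0.46 for miR-150 (0.0115) and 0.46 for miR-342-3p (0.00897). The blocked fit was not run without control replicate 1, the only control array on slide 4. Within slide 4, with 2 treated arrays and control replicate 1, the differences were 1.59, 0.76 and 0.69 in the same order. Within slide 1, with 1 treated and 2 control arrays, they were 0.32, 0.07 and 0.33. For miR-142-3p the slides went opposite ways, at -1.47 on slide 1 and 0.71 on slide 4. Normexp background correction, which lowered the median of all tested miRNAs by 0.40 in this comparison, left only miR-146a called, at 0.50 (adjusted p = 0.0281), and turned miR-150 to -0.05 and miR-342-3p to -0.35. Set against that median of -0.30, miR-150 was 0.26 above it and miR-342-3p 0.04 below it. Before normexp they were 0.35 and 0.37 above the median. Elsewhere the adjusted p missed the threshold while the difference stayed positive. miR-150 was at 0.45 with scaling over all probes (adjusted p = 0.113), as in the limma fit above. In the authors' deposited table miR-150 was at 0.35 (0.121) and miR-342-3p at 0.38 (0.0803), and miR-342-3p was also at 0.38 with quantile normalization (0.0541). In a fit of only the 2 groups miR-146a kept its difference of 0.68, with a larger SE of 0.23 (adjusted p = 0.0660).

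Marker miRNAs of other cell types stand beside these rises. miR-122 of hepatocytes differed by -0.04 ± 0.10 (limma adjusted p = 0.767) and miR-451 of red cells by -0.38 ± 0.24 (adjusted p = 0.243). None of the 5 hepatocyte miRNAs was called, but all 5 had negative differences, with a median of -0.28 where that of all tested miRNAs was 0.10. miR-101a had the largest at -0.59 ± 0.24 (adjusted p = 0.0609), and miR-192 differed by -0.28 ± 0.13 (adjusted p = 0.106). Their summed level (linear scale, relative to the 75th percentile) was 82.4 to 100.2 against 74.3 to 112.6 in control animals. Sums over miRNAs weight each by the brightness of its probe, so they follow the brightest members most and do not measure abundance. This one is mostly miR-122 signal. None of the 7 stellate and mesenchymal miRNAs and neither of the endothelial pair was called. The epithelial and bile duct list had 3 of 5 tested members called higher, among them miR-200a and miR-200b, with a summed level of 0.645 to 0.887 against 0.325 to 0.669. The largest part of that sum is miR-31, which was not called (0.47 ± 0.21, limma adjusted p = 0.0914). miR-141 of that list was at the floor on every array of both groups. The part of these cell types in the leukocyte miRNA differences was not tested.

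**Figure D2:**
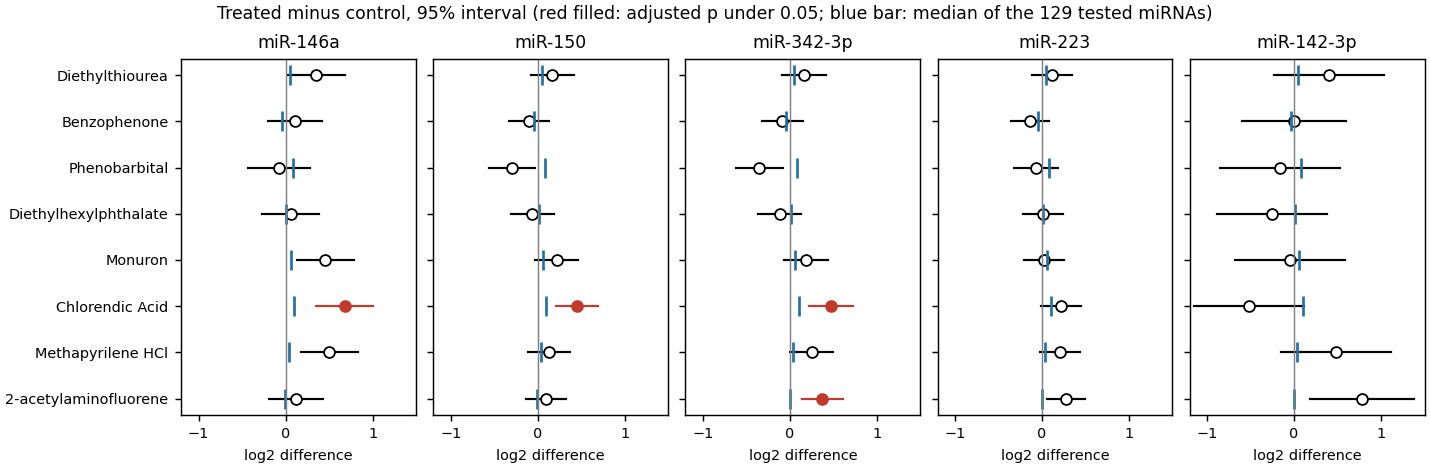
Difference from control (x axis, log2) of each tested leukocyte miRNA for each of the 8 diets, with 95% intervals from the limma fit. Filled red points have an adjusted p under 0.05 over all 129 tested miRNAs, and the blue bars mark the median difference of those 129. The 3 red points with Chlorendic Acid lie at 0.68, 0.45 and 0.47, and the 1 with 2-acetylaminofluorene at 0.37.

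With 2-acetylaminofluorene, an aromatic amine that forms DNA adducts, miR-342-3p rose and no other leukocyte miRNA passed, while all 5 had higher means than in control animals, as did 48.1% of tested miRNAs. The background was 11.6% of tested miRNAs called in this comparison. miR-342-3p read -4.65, -5.03, -4.87, -4.75 and -4.50 in the treated animals, 4 of them above all control animals, and 4 of the 5 arrays detected it. The highest level, in replicate 5, was the one not detected. It came from a background-subtracted signal, before scaling, of 18.7 units. That array had the lowest 75th percentile of the 38, 424 units, and 106 miRNAs detected. The difference was 0.37 ± 0.12, or 1.30-fold (limma adjusted p = 0.0342). It did not pass without control replicate 1 (0.34, adjusted p = 0.0618, background 10.1%), nor without control replicate 3 or 4 or 2-acetylaminofluorene replicate 1 or 5, and without replicate 5 it was 0.31 (adjusted p = 0.109). With slide as a block it was 0.36 (adjusted p = 0.129), and on slide 3, with 1 treated and 2 control arrays, it was 0.26. Scaling over all probes, which lowered the median of all tested miRNAs by 0.33, brought it to -0.0022, which is 0.33 above that median.

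miR-142-3p had the largest mean difference of the leukocyte miRNAs with this chemical, with treated levels of -3.62, -3.26, -3.19, -3.66 and -3.09. The 5 animals were all above the control mean and 3 were above every control animal, but the control animals were widely spread. The difference of 0.78 ± 0.29 did not pass (limma adjusted p = 0.0761), and without control replicate 1 it was 0.62 (adjusted p = 0.169). Leaving out either Monuron replicate 3 or Chlorendic Acid replicate 4, which are in neither group but enter the shared estimate of spread, brought its adjusted p as low as 0.0299.

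miR-223 read -2.69, -2.71, -2.88, -2.62 and -2.42, with 4 of 5 animals above all control animals, at a difference of 0.28 ± 0.11 (limma adjusted p = 0.0773). miR-146a and miR-150 differed by 0.12 ± 0.15 and 0.10 ± 0.11 with both groups overlapping, and miR-146a turned to -0.08 without control replicate 1. For 2-acetylaminofluorene, miR-122 differed by -0.17 ± 0.10 (adjusted p = 0.277) and miR-451 by 0.27 ± 0.23 (adjusted p = 0.521). All 5 hepatocyte miRNAs had negative differences, from -0.32 for miR-192 (adjusted p = 0.0773) to -0.12 for miR-194, and none was called. Their summed level was 73.8 to 85.8 against 74.3 to 112.6 in control animals. Of the endothelial pair, miR-126* differed by -0.54 ± 0.20 (adjusted p = 0.0648) and miR-126 by -0.12 ± 0.11 (adjusted p = 0.567), neither called, with a summed level of 1.34 to 1.68 against 1.58 to 1.84. The stellate and mesenchymal list had 3 of 7 members called higher, miR-199a-3p, miR-199a-5p and miR-214, and its summed level was 0.960 to 1.48 against 0.913 to 1.12 in control animals. The epithelial list had 3 of 5 tested members called higher, with a summed level of 0.501 to 0.649 against 0.325 to 0.669. The median sum was 0.520 against 0.587 in control animals. miR-31, the largest part of that sum, differed by -0.34 ± 0.20 (limma adjusted p = 0.273). The part of these cell types in the rise of miR-342-3p was not tested.

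Set directly against each other, the livers of these 2 diets differed in 3 of the leukocyte miRNAs, in a pair where 44.2% of tested miRNAs were called. miR-142-3p was higher with 2-acetylaminofluorene than with Chlorendic Acid by 1.30 ± 0.31 (limma adjusted p = 0.00180), while miR-146a was lower by 0.56 ± 0.16 (0.00684) and miR-150 by 0.35 ± 0.12 (0.0202). The members did not move together between these diets. For miR-142-3p, 1 of the 4 Chlorendic Acid animals, replicate 4 at -3.46, lay among the 2-acetylaminofluorene animals, and for miR-146a every Chlorendic Acid animal lay above every 2-acetylaminofluorene animal. Lack of overlap in either direction occurred for 23.3% of tested miRNAs in that pair.

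No leukocyte miRNA was called with the other 6 chemicals by limma. The background shares called were 0.0% with Diethylthiourea, 4.65% with Benzophenone, 3.88% with Phenobarbital, 14.7% with Diethylhexylphthalate, 3.88% with Monuron and 4.65% with Methapyrilene HCl. At an unadjusted p under 0.05 the counts were 1, 0, 2, 0, 1 and 2 of the 5 members in the same order, where 6.2%, 12.4%, 10.9%, 26.4%, 14.7% and 15.5% of tested miRNAs did so.

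miR-146a came nearest with Methapyrilene HCl, an antihistamine, and with Monuron, a urea herbicide. It read -0.79, -0.44, -1.03 and -0.81 with Methapyrilene HCl, a difference of 0.50 ± 0.16 (limma adjusted p = 0.0627). With Monuron it read -0.73, -0.99, -0.51 and -1.02, a difference of 0.46 ± 0.16 (adjusted p = 0.110). Both groups lay above control replicate 1 by a wide margin and among or above the other control animals. Without control replicate 1 the differences were 0.30 (adjusted p = 0.268) and 0.26 (adjusted p = 0.478). Neither diet shares a slide with a control array, so for these diets slide and group are compared only through other groups.

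Diethylthiourea gave positive mean differences for all 5 miRNAs, from 0.11 for miR-223 to 0.40 for miR-142-3p, with limma adjusted p from 0.675 to 0.993. miR-146a read -0.94, -0.90, -1.19 and -0.64 there, with 3 of 4 animals above all control animals, and its difference of 0.35 ± 0.16 fell to 0.15 without control replicate 1. Over the 129 tested miRNAs 62.0% had positive differences with this diet.

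Phenobarbital, an inducer of liver drug metabolism, gave negative mean differences for all 5 miRNAs, from -0.07 for miR-223 to -0.35 for miR-342-3p, while 63.6% of tested miRNAs had positive ones. miR-342-3p read -5.50, -5.47 and -5.50, below every control animal and at or next to the floor, with 1 of 3 arrays detecting it. Lack of overlap in either direction occurred for 10.9% of tested miRNAs in this comparison. The difference of -0.35 ± 0.13 did not pass (limma adjusted p = 0.207), and the floor sets how low it can go. miR-150 read -3.82, -3.63 and -3.51, with 2 of 3 animals below all control animals, and differed by -0.30 ± 0.13 (adjusted p = 0.297). In the authors' deposited table, which has no floor, miR-342-3p differed by -0.62 (adjusted p = 0.0337 in the same limma fit) and miR-150 by -0.54 (adjusted p = 0.117).

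Benzophenone, a sunscreen and fragrance ingredient, and Diethylhexylphthalate, a plasticizer that activates PPAR alpha in rodent liver, had no leukocyte miRNA near the threshold. With Benzophenone they ran from -0.14 for miR-223 to 0.10 for miR-146a, and with Diethylhexylphthalate from -0.25 for miR-142-3p to 0.06 for miR-146a. The lowest adjusted p of the 10 limma tests was 0.580. The 95% intervals for miR-150 were -0.33 to 0.13 with Benzophenone and -0.30 to 0.18 with Diethylhexylphthalate. Those for miR-142-3p were wider, at -0.60 to 0.60 and -0.88 to 0.38, and include sizeable differences in either direction.

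Over the 8 differences from control together, all 5 tested leukocyte miRNAs passed limma's F test, as did 45.0% of tested miRNAs. The adjusted p was 9.77e-05 for miR-342-3p, 0.00148 for miR-150, 0.00338 for miR-146a, 0.0199 for miR-142-3p and 0.0239 for miR-223. All 5 also passed without control replicate 1, where the background was 52.7%. With slide as a block 3 passed, and miR-142-3p (adjusted p = 0.0647) and miR-223 (0.117) did not. Under normexp none passed, the lowest adjusted p being 0.0630 for miR-146a, and miR-146a alone had an unadjusted p under 0.05. The share of all tested miRNAs that passed is not given for either setting. Detection on every array of a group let a miRNA into the test. Each probe of miR-342-3p met this only with Chlorendic Acid and Methapyrilene HCl, where its means exceeded that of control. Its F test does not allow for that filter, and its brighter probe was at the floor on 4 of the 38 arrays.

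The order of the 9 diets by mean level shows where each miRNA was high and low. miR-146a, miR-150 and miR-342-3p were highest with Chlorendic Acid and lowest with Phenobarbital. Their means there were -0.59 ± 0.18 (SD, n = 4) and -1.35 ± 0.06 (n = 3) for miR-146a. For miR-150 they were -2.91 ± 0.16 and -3.65 ± 0.16, and for miR-342-3p the Chlorendic Acid mean was -4.66 ± 0.17. The Phenobarbital mean of miR-342-3p is set by the floor, with 2 of 3 arrays at it and 1 of 3 detecting the miRNA, so the level there may be lower than the values show. miR-142-3p was instead highest with 2-acetylaminofluorene, at -3.36 ± 0.26 (n = 5), and lowest with Chlorendic Acid, at -4.67 ± 0.85. miR-223 was highest with 2-acetylaminofluorene, at -2.66 ± 0.17, and lowest with Benzophenone, at -3.08 ± 0.21 (n = 5).

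No neighbours in any of these orders differed beyond their spread: the animals' ranges overlapped at every step, and the limma adjusted p of each step was 0.258 or more. Among all 36 pairs of diets, in which 11.4% of the pairs and miRNAs tested were called, miR-342-3p was called in 11 pairs, miR-150 in 9, miR-146a in 6, miR-142-3p in 4 and miR-223 in 3. The median tested miRNA was called in 3 pairs, and 91.5% of tested miRNAs were called in fewer pairs than miR-342-3p. With slide as a block these counts were 9, 5, 5, 2 and 0 in the same order, and under normexp miR-146a was called in 5 pairs, miR-142-3p in 1 and the other 3 in 0. No share over all tested miRNAs is given for either setting. The filter and the floor named above for miR-342-3p bear on its pair counts as well. Chlorendic Acid against Phenobarbital gave limma differences of 0.75 ± 0.14 for miR-150 (adjusted p = 0.000114) and 0.76 ± 0.18 for miR-146a (0.00183), with 28.7% of tested miRNAs called in that pair. For miR-342-3p the limma difference was 0.83 (adjusted p = 4.64e-05), a value that the floor under the Phenobarbital arrays limits. These diets were paired because they ranked highest and lowest for these miRNAs, and the adjusted p does not allow for that choice.

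The second probe of miR-146a was detected on all 38 arrays and gave a Chlorendic Acid difference of 0.63. For miR-342-3p the second probe read 0.37, but it was detected on only 3 of 5 control arrays and was at the floor on 1. For miR-150 the second probe read 0.24 where the brighter one read 0.45, and it too was detected on only 3 of 5 control arrays. For miR-142-3p the second probe read -0.22 with Chlorendic Acid, where it was detected on 2 of 4 arrays and at the floor on 3, and 0.79 with 2-acetylaminofluorene, where all 5 arrays detected it. The dimmer probes of miR-142-3p, miR-150 and miR-342-3p were at the floor on 7, 2 and 9 of the 38 arrays. Probes of a miRNA read the same RNA on the same array and are no replicates.

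**Figure D3:**
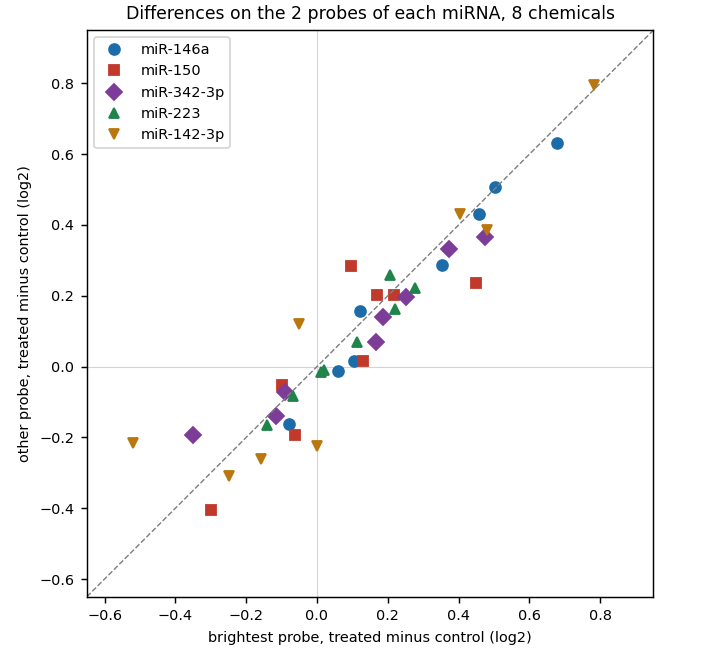
Difference from control on the brighter probe (x axis, log2) against that on the other probe (y axis, log2) for the 5 tested leukocyte miRNAs and 8 diets, 1 point for each miRNA and diet. The dashed line marks equal values. Points of miR-146a and miR-223 lie near it, and the miR-142-3p point for Chlorendic Acid lies off it, at -0.52 on one probe and -0.22 on the other.

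Across the 38 arrays, which share the array scaling and group effects, the levels of miR-146a, miR-150, miR-223 and miR-342-3p had r of 0.39 to 0.71 with one another. The miRNA most like miR-146a, by Pearson's r over all tested miRNAs, was miR-150 (r = 0.69), followed by miR-15b (0.66), and the miRNA most like miR-150 was miR-146a, followed by miR-125a-5p (0.67). miR-223 and miR-342-3p were likewise each other's closest (0.71), followed by miR-125a-5p (0.58) for miR-223 and by miR-150 (0.65) for miR-342-3p. These values describe arrays that span all 9 diets.

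miR-142-3p had r of -4.75e-05 with miR-146a, -0.01 with miR-150, 0.36 with miR-223 and 0.25 with miR-342-3p. Its closest miRNAs were miR-30e (0.79) and miR-106b (0.75), neither of them a leukocyte member. With each group's mean taken out, r was 0.92 with miR-30e and 0.90 with miR-29b, where the median tested miRNA had 0.27. So the spread of miR-142-3p among animals of a diet ran alongside that of miR-30e. The deviations of miR-142-3p also had an r of 0.48 with the number of miRNAs detected on the array, against 0.11 for the median tested miRNA and 0.04 to 0.26 for the other leukocyte members.

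After group means were taken out, the closest miRNAs of the others were miR-31 (0.72) and miR-378* (0.72) for miR-146a, let-7i (0.64) and miR-181a (0.41) for miR-150, miR-30e* (0.68) and miR-450a (0.56) for miR-223, and miR-223 (0.53) and miR-148b-3p (0.46) for miR-342-3p. Among miR-146a, miR-150, miR-223 and miR-342-3p, r on that scale was 0.19 to 0.53, and r of miR-142-3p with them was 0.03 to 0.26, ranges that overlap. In the Chlorendic Acid animals miR-30e read -3.68, -3.29, -3.99 and -2.44, highest in replicate 4 as miR-142-3p was. The difference of miR-30e from control was -0.48 ± 0.28 (limma adjusted p = 0.192), and that of miR-29b was -0.77 ± 0.29 (adjusted p = 0.0417).

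**Figure D4:**
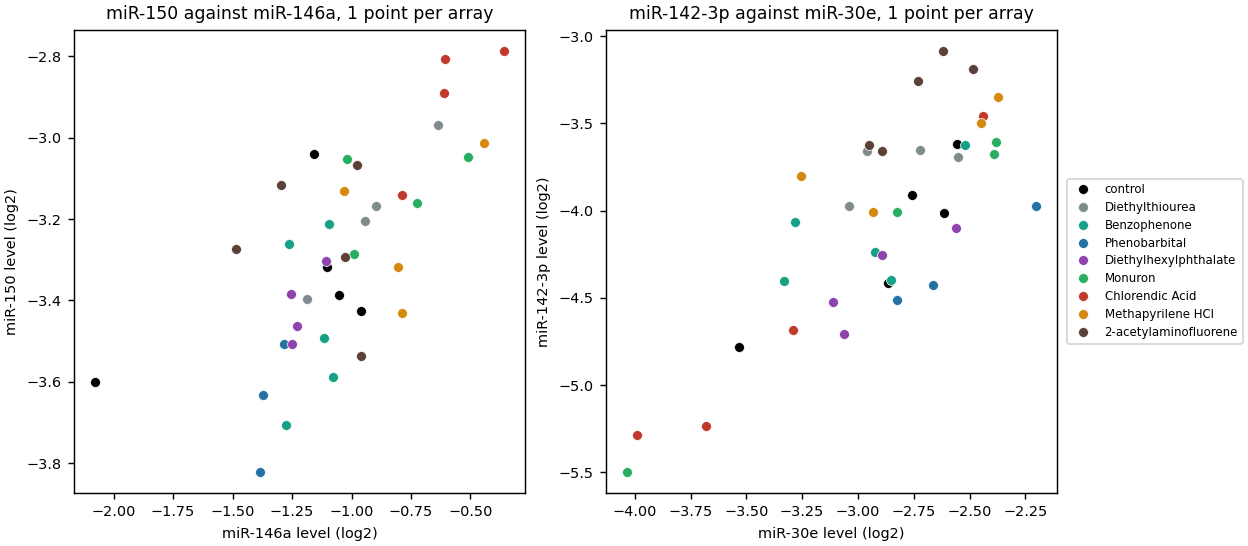
Left, level of miR-150 (y axis, log2) against miR-146a (x axis, log2); right, level of miR-142-3p (y axis, log2) against miR-30e (x axis, log2), with 1 point per array for 38 arrays and colours for the 9 diets. In the left panel the 4 Chlorendic Acid arrays lie toward the upper right and control replicate 1 lies farthest left at -2.08. In the right panel Monuron replicate 3 and 2 Chlorendic Acid arrays lie at the lower left and Chlorendic Acid replicate 4, at -2.44 and -3.46, at the upper right.

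Of 14 further names of immune cell miRNAs looked for, 8 were on the array and 1, miR-181a, was tested. miR-181a, which tunes receptor signalling in mouse lymphocytes and is also made in other tissues, rose with Chlorendic Acid by 0.61 ± 0.16 (limma adjusted p = 0.00410) and with 2-acetylaminofluorene by 0.54 ± 0.15 (adjusted p = 0.0182). It was at the floor in 1 of 5 control animals, where the mean level was -4.84, against -4.23 and -4.30 with these 2 diets. The differences without that animal are not given. With the other diets miR-181a was not called (limma adjusted p of 0.0866 or more). Its differences there were 0.43 with Methapyrilene HCl, 0.42 with Diethylhexylphthalate, 0.40 with Monuron, 0.29 with Diethylthiourea, 0.15 with Benzophenone and -0.01 with Phenobarbital. miR-146b, miR-147, miR-132, miR-181b, miR-181c and miR-342-5p were at the floor on all control, Chlorendic Acid and 2-acetylaminofluorene arrays.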

How the data were processed

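RNA from 38 livers was labelled with Cy3 and hybridized to 1-colour miRNA arrays by the authors, per the labels. Per the file headers, the deposited scanner output came from Feature Extraction 10.5.1.1 and gives a background-subtracted intensity for every spot. The authors' deposited table holds log2 values for 167 miRNAs. For 99.4% of 6293 values these equal the logged total gene signal less an array constant, to within 0.01, and the column medians are 0.0162 to 0.337. The basis of that constant is unknown.

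Spots marked as controls or outliers were dropped, the spots of each of 938 probes averaged, and each array divided by its 75th percentile (424 to 1086 units) over the 137 probes detected on all arrays. Values were floored at the 5th percentile of detected values and logged, and each miRNA took its brightest probe. limma 3.58.1 (lmFit, eBayes, R 4.3.3) was fitted to 129 miRNAs on all 38 arrays, with Benjamini-Hochberg adjustment over the 129 within each comparison, and was tested on simulated data. Groups of 3 to 5 animals limit the precision. The 6 members are named throughout. For likeness, each member's 2 closest tested miRNAs by Pearson's r over the arrays are named, before and after group means are removed. Further immune names were counted, giving the values of those called, and miR-122 and miR-451 stand beside each member called. The members, lists and rules were chosen with earlier results of these data known. Alternatives were other scaling (all probes, quantile), normexp with an offset of 50, a lower floor, the mean of probes, total gene signals, the authors' table, other filters, slide or replicate blocks, only the 2 groups compared, another variance model and each array left out.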

Additional observations from a re-analysis of the deposited data

Results flagged for a closer look

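Of 40 groups of 4 or 5 arrays examined by Dixon's criterion, 3 held an array set apart from the rest, and chance flags about 1 in 20 groups. miR-146a in control replicate 1 had a level of -2.08 (log2), while the other 4 control animals lay from -1.16 to -0.96. miR-142-3p in Diethylthiourea replicate 1 had a level of -3.97, below the -3.69 to -3.65 of the other 3 animals. miR-146a in Diethylhexylphthalate replicate 3 had a level of -1.11, above the -1.25 to -1.23 of the others.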

How the results depend on the processing

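The 3 calls with Chlorendic Acid passed in all 38 fits that left out 1 array, while the 1 call with 2-acetylaminofluorene did not. Only the fits that leave out an array of the 2 groups compared can change a difference. With 2-acetylaminofluorene the count of leukocyte miRNAs called by limma was 0 under scaling over all probes, quantile normalization, the total gene signal, a lower floor, normexp, the authors' deposited table, slide as a block, only the 2 groups compared, the 3 arrays of fewest detected miRNAs left out and the number of detected miRNAs as a term, where 0 to 3 members had an unadjusted p under 0.05. The difference of miR-342-3p was 0.37 in the fit with a lower floor (adjusted p = 0.0504) and with only the 2 groups (0.0942), as before, and the call was lost through the p alone. Among miRNAs detected on all arrays the count was also 0, but miR-342-3p is not one of them. It was 2 with the mean of probes. The count with Chlorendic Acid was 1 under normexp and in the authors' table, and in the latter miR-150 and miR-342-3p stayed positive. With Methapyrilene HCl it was 1 under quantile normalization, the mean of probes and the total gene signal, and with Phenobarbital 1 in the authors' table. The F test called 0 members under normexp (1 at an unadjusted p under 0.05), and 3 with slide as a block and among miRNAs detected on all arrays, where 3 members were left to test. Over the 36 pairs of diets the calls fell from 33 to 6, 21 and 13 under these settings. The causes were not tested. Leaving out 1 array at a time, the count was 0 to 2 with 2-acetylaminofluorene and 0 to 1 with Methapyrilene HCl. The share of all tested miRNAs called is not given for these settings, so these counts have no background beside them.

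Of 584 differences of single members under other settings, 56 changed sign. The 584 include settings that cannot change a difference, namely other filters, another variance model and only the 2 groups compared. Scaling over all probes moved the median of all tested miRNAs by -0.33 for 2-acetylaminofluorene, -0.20 for Diethylthiourea and -0.11 for Phenobarbital. It gave -0.25 for miR-146a, -0.28 for miR-150, -0.10 for miR-223 and -0.0022 for miR-342-3p with 2-acetylaminofluorene, -0.060 for miR-150, -0.12 for miR-223 and -0.063 for miR-342-3p with Diethylthiourea, -0.014 for miR-146a and -0.063 for miR-223 with Diethylhexylphthalate, -0.086 for miR-142-3p with Benzophenone and -0.062 for miR-223 with Monuron. Normexp moved that median by -0.15 for Benzophenone, -0.22 for Diethylhexylphthalate, -0.19 for Monuron, -0.40 for Chlorendic Acid and -0.23 for Methapyrilene HCl. It gave -0.046 for miR-150, -0.12 for miR-223 and -0.35 for miR-342-3p with Chlorendic Acid. With Methapyrilene HCl it gave -0.075 for miR-142-3p, -0.16 for miR-150, -0.083 for miR-223 and -0.28 for miR-342-3p, and with Monuron -0.070 for miR-150, -0.16 for miR-223 and -0.22 for miR-342-3p. With Phenobarbital it gave 0.061 for miR-142-3p, 0.029 for miR-150, 0.076 for miR-223 and 0.13 for miR-342-3p. It also gave -0.020 for miR-146a and -0.18 for miR-223 with Diethylhexylphthalate, -0.25 for miR-142-3p with Benzophenone and -0.0028 for miR-150 with 2-acetylaminofluorene.

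The authors' deposited table moved the median by -0.24 for 2-acetylaminofluorene, -0.20 for Methapyrilene HCl and -0.16 for Phenobarbital. It gave -0.13 for miR-146a, -0.12 for miR-150 and -0.017 for miR-223 with 2-acetylaminofluorene, -0.12 for miR-150 and -0.0036 for miR-342-3p with Methapyrilene HCl, -0.015 for miR-146a and -0.045 for miR-223 with Diethylhexylphthalate, -0.10 for miR-142-3p with Benzophenone and -0.099 for miR-223 with Monuron. Quantile normalization gave -0.067 for miR-150 with 2-acetylaminofluorene, -0.0082 for miR-223 with Diethylhexylphthalate and -0.0035 for it with Monuron. The mean of probes gave -0.11 for miR-142-3p with Benzophenone, 0.036 for it with Monuron and -0.0024 for miR-223 with Diethylhexylphthalate. The total gene signal gave -0.11 for miR-142-3p with Benzophenone, and -0.0024 and -0.076 for miR-223 with Diethylhexylphthalate and Monuron. With slide as a block miR-142-3p was 0.022 with Monuron, and with the number of detected miRNAs as a term it was -0.060 with Benzophenone. With the arrays of fewest detected miRNAs left out, miR-142-3p was -0.16 with Benzophenone and 0.22 with Monuron, miR-146a was -0.098 with Benzophenone, -0.13 with Diethylhexylphthalate and -0.081 with 2-acetylaminofluorene, and miR-223 was -0.043 with Diethylhexylphthalate and -0.041 with Monuron.

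Leaving out 1 array at a time, signs changed over these ranges: -0.16 to 0.13 for miR-142-3p with Benzophenone, -0.25 to 0.38 for it with Monuron, -0.081 to 0.21 for miR-146a with 2-acetylaminofluorene, -0.098 to 0.18 for it with Benzophenone, -0.14 to 0.14 for it with Diethylhexylphthalate, -0.12 to 0.018 for miR-150 with Diethylhexylphthalate, and for miR-223 -0.026 to 0.059 with Diethylhexylphthalate, -0.017 to 0.068 with Monuron and -0.11 to 0.011 with Phenobarbital. Arrays with the same replicate number did not deviate together (mean r of -0.0030 over 139 pairs, 53 of them over 0.1). With the replicate number as a block, miR-146a, miR-150 and miR-342-3p differed by 0.71, 0.43 and 0.55 with Chlorendic Acid and miR-342-3p by 0.37 with 2-acetylaminofluorene, and these 4 passed. Signal near background limits miR-342-3p and miR-142-5p, which lie close to or at the floor.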
